A study of Homo sapiens with 9 samples.

Results

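Bile acids are made from cholesterol in hepatocytes, and the amount made is set by a feedback loop that runs through the liver and the intestine. The 10 genes described here were chosen by symbol and cover that loop. They are the enzymes CYP7A1, CYP8B1 and CYP27A1, the bile acid receptor FXR (NR1H4) with its target SHP (NR0B2), the hormone FGF19 with its receptor FGFR4 and co-receptor KLB, and the exporters BSEP (ABCB11) and OSTα (SLC51A). All 10 have a line among the 24204 gene symbols of the table, and 7 of them passed the filter on low values that 11265 genes passed. The rule goes by symbol and uses no measured value, but the members were chosen with earlier results of these data known.

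In the classical pathway CYP7A1 adds the first hydroxyl group to cholesterol and limits the rate of synthesis, and CYP8B1 directs intermediates towards cholic acid. CYP27A1 begins the alternative pathway in mitochondria. Bile acids activate FXR, which works as a dimer with RXRα and induces SHP, a repressor that lacks a DNA-binding domain and lowers CYP7A1 and CYP8B1 transcription. In the ileum FXR induces FGF19, which travels to the liver and acts on FGFR4 held together with β-Klotho (KLB) to repress CYP7A1. FXR also induces the canalicular pump BSEP and the basolateral exporter OSTα/OSTβ, which carry bile acids out of the cell.

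The cells were HepG2, an established human liver cancer line that keeps many hepatocyte functions. They were infected with lentivirus that carried a hairpin RNA, either a control (shCtrl) or a hairpin against TRIB3 (shTRIB3-1 in 1 group, shTRIB3-2 in another), and then selected with puromycin. TRIB3 encodes a pseudokinase induced by nutrient stress. Each group held 3 RNA-seq libraries, 9 in all, of 34206726 to 36311029 fragments each, and the question put to the genes below is how their RNA levels stood after TRIB3 knockdown. All 3 groups carried a lentivirus and were under puromycin, and each hairpin is 1 sequence in 1 cell line. The labels name high-glucose DMEM with serum and the VAHTS Universal V6 kit, whereas the study's methods describe glutamine-deprived cells and a NEBNext kit. The study's discussion reports changed DNA repair genes after TRIB3 depletion without glutamine deprivation, but does not name these libraries. The medium at harvest is thus uncertain. Nothing in the labels says whether the 3 libraries of a group came from separate cultures, so the p-values measure the spread between these libraries, which may be technical.

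The sequences that the hairpins target, read from the study's list of targeting sequences, show what the treatment was. Both lie in coding sequence of TRIB3 on the plus strand of chromosome 20, shTRIB3-1 in exon 2 (chr20:388072-388092, GRCh38) and shTRIB3-2 in exon 3 (chr20:391473-391493) of a transcript with 4 exons in GENCODE release 44. The first matched 4 of 4 annotated TRIB3 transcripts and the second 3 of 4, written here 5′ to 3′ as the sense strand.
shTRIB3-1: tggatgacaacttagataccg
shTRIB3-2: gccgtgctcttccgccagatg

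Levels are given as FPKM, the number of sequenced fragments scaled for gene length and for library depth. TRIB3 itself stood at 67.9, 65.8 and 66.6 FPKM in shCtrl, at 34.1, 32.7 and 34.0 in shTRIB3-1, and at 20.6, 20.7 and 20.4 in shTRIB3-2. The groups did not overlap, and the mean level was 50.3% of control with the first hairpin and 30.8% with the second. The hairpins differed from each other in TRIB3 level by a log2 fold change of -0.71 (SE 0.0301, limma adjusted p = 9.54e-09).

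HepG2 showed 10 of 10 hepatocyte marker genes above the filter in every group. Their summed level was 8220 to 8860 FPKM in shCtrl, 8520 to 8950 in shTRIB3-1 and 10700 to 11000 in shTRIB3-2. ALB made up most of it, and its rise with shTRIB3-2 (log2 fold change 0.35, limma adjusted p = 4.86e-05) did not pass after quantile scaling (0.224). Of the 10 markers, 2 passed higher and 4 lower with shTRIB3-1 (32.9% and 41.5% of all tested genes). With shTRIB3-2, 5 passed higher and 1 lower (35.4% and 40.5%). Of 5 cholangiocyte markers 3 passed the filter, with summed levels of 426 to 431, 780 to 821 and 793 to 807 FPKM. KRT19 made up most of that sum and stood at 225 to 246 FPKM in shCtrl and 606 to 653 in the knockdown groups, whereas SOX9 fell from 39.2 to 44.1 FPKM in control to 22.0 to 24.3 and 18.6 to 19.7 (log2 fold change -0.81, adjusted p = 2.73e-08, and -1.08, adjusted p = 1.63e-09). EPCAM did not pass with either hairpin (-0.07, adjusted p = 0.103, and 0.06, adjusted p = 0.113), though it did under some scalings, and CFTR was at most 0.0193 FPKM. Of 9 enterocyte markers 7 had a line and 2 passed, with sums of 62.4 to 64.3, 80.1 to 82.4 and 89.1 to 93.3 FPKM, most of it VIL1, and the sucrase gene SI was at 0 in 7 of 9 libraries. Since these are bulk RNA values, fewer cells of a type and less RNA per cell cannot be told apart, and the part that these marker levels have in any result below was not tested.

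In control cells the mean levels of the 10 genes ran from 0.00727 to 89.1 FPKM. NR0B2 (89.1 ± 3.33 FPKM, SD, n = 3), FGFR4 (84.6 ± 1.80) and CYP27A1 (83.8 ± 2.32) were highest, at percentiles 97.6, 97.4 and 97.3 of all symbols. The NR0B2 and FGFR4 ranges overlapped, as did those of FGFR4 and CYP27A1. KLB followed at 23.2 ± 0.558, NR1H4 at 13.6 ± 0.136, CYP7A1 at 6.54 ± 0.375 and SLC51A at 4.74 ± 0.390 FPKM, and no library of these 4 genes overlapped with the next in order. CYP8B1 (0.450 ± 0.0988), FGF19 (0.101 ± 0.0710) and ABCB11 (0.00727 ± 5.89e-05) were below the filter of 1 FPKM in at least 3 libraries. The floor that 3 fragments set was 0.0458 FPKM for FGF19 and 0.0109 FPKM for ABCB11 in shCtrl, so ABCB11 lay under it in control cells.

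**Figure D1:**
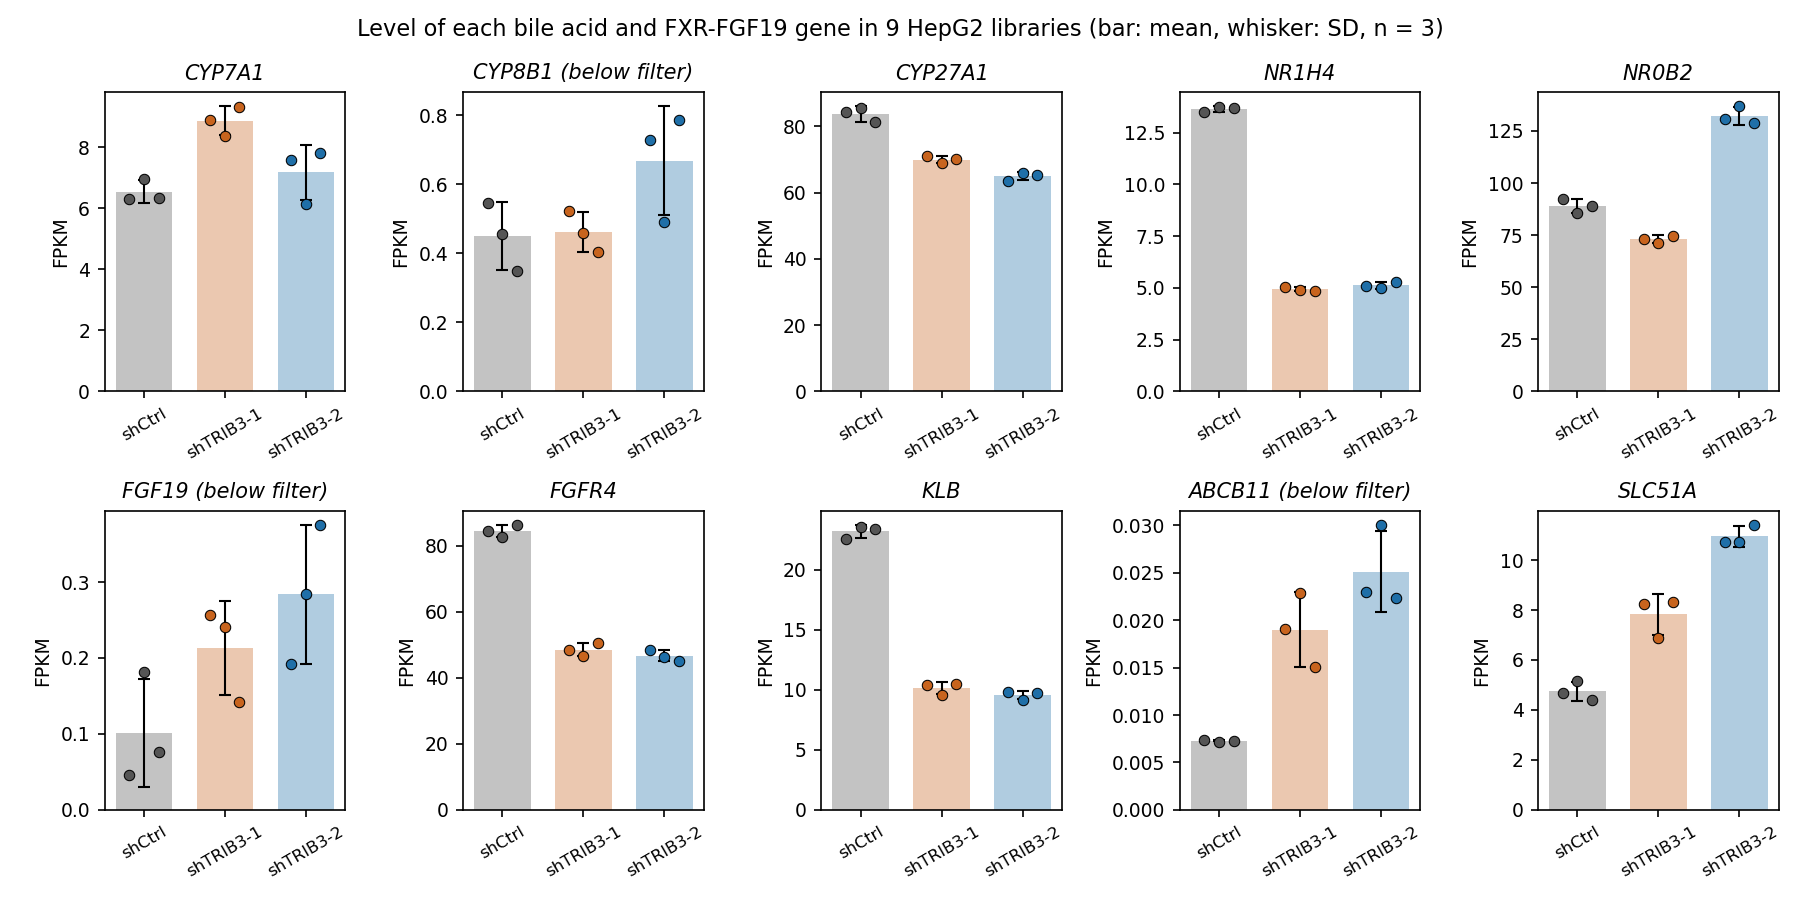
FPKM of each of the 10 genes in the 9 libraries, with 1 panel and 1 linear axis from 0 per gene (points are libraries, bars are group means and whiskers are SD, n = 3). NR1H4, FGFR4 and KLB stood lower in all 6 knockdown libraries, SLC51A stood higher in all 6, and NR0B2 lay below control with shTRIB3-1 and above it with shTRIB3-2.

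Genes were compared with limma on log2(FPKM + 0.1), with p-values adjusted over all 11265 tested genes, and a call asked for both an adjusted p under 0.05 and a change of more than 1 on the log2 scale. Both knockdown groups were compared with the same shCtrl libraries. With shTRIB3-1, 5 of the 7 tested members fell (CYP27A1, NR1H4, NR0B2, FGFR4 and KLB) and 2 rose (CYP7A1 and SLC51A), where 41.5% of all tested genes passed lower and 32.9% passed higher. With shTRIB3-2, 4 fell (CYP27A1, NR1H4, FGFR4 and KLB), 2 rose (NR0B2 and SLC51A) and CYP7A1 did not pass, against 40.5% lower and 35.4% higher among all genes. Most tested genes thus passed the p threshold in 1 direction or the other. NR1H4 and KLB were called lower with either hairpin, 2 of 7 members against 6.1% of all genes with shTRIB3-1 and 6.27% with shTRIB3-2. No member was called higher with shTRIB3-1 (5.39% of all genes), and SLC51A alone was called higher with shTRIB3-2 (6.06%). The median log2 fold change of the 7 members was -0.29 with shTRIB3-1 and -0.36 with shTRIB3-2, beside -0.06 and -0.04 over all tested genes.

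**Figure D2:**
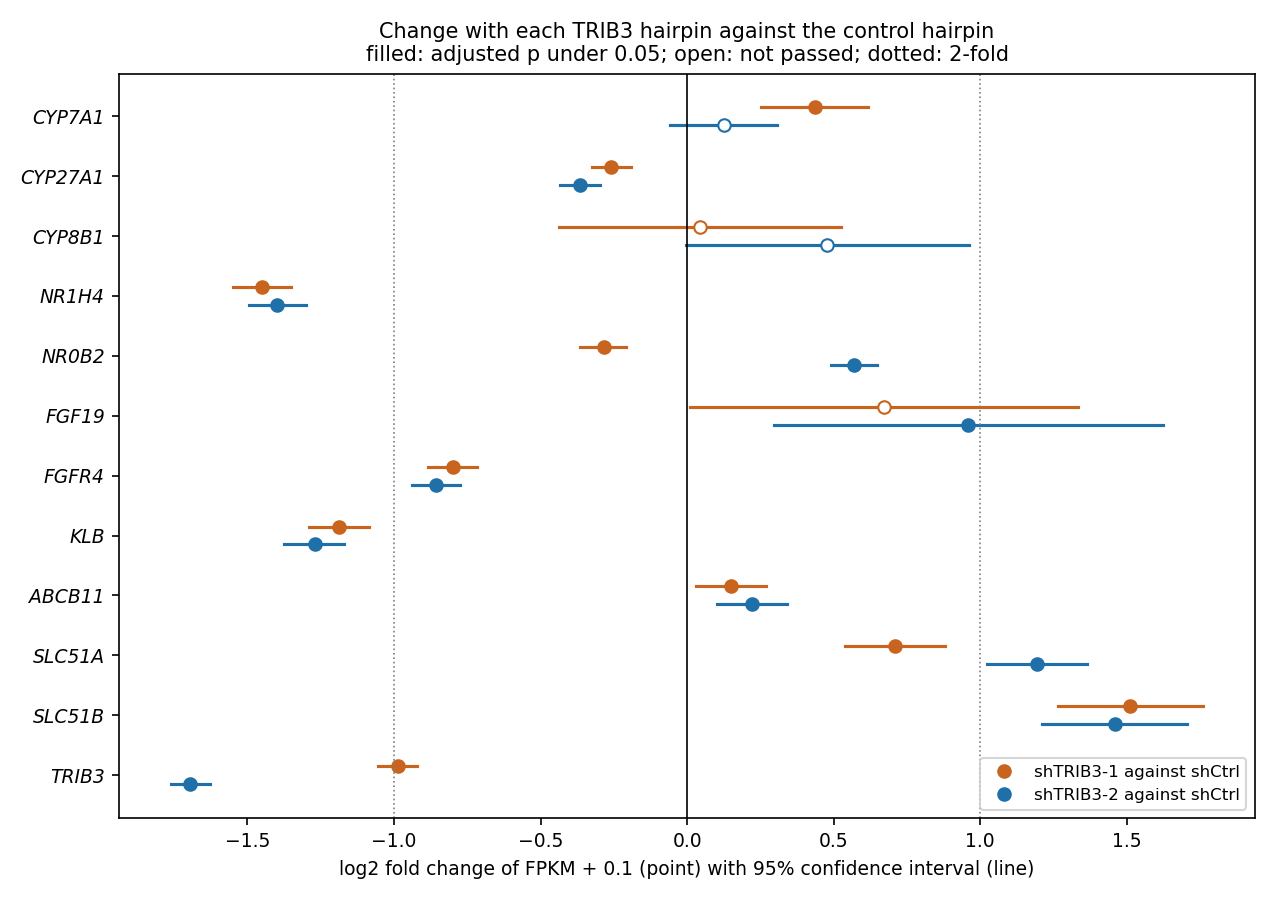
Log2 fold change of FPKM + 0.1 against shCtrl for the 10 genes, SLC51B and TRIB3, with 95% confidence intervals from limma (orange, shTRIB3-1, and blue, shTRIB3-2, with filled points at an adjusted p under 0.05). NR1H4 and KLB lie beyond -1 with both hairpins, SLC51B beyond 1 with both, and the intervals of NR0B2 lie on opposite sides of 0.

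NR1H4, the gene of the bile acid receptor FXR (chromosome 12, 100473708 to 100564414, GRCh38), showed the largest fall of the 10. It stood at 13.5, 13.7 and 13.7 FPKM in shCtrl, at 5.04, 4.88 and 4.87 in shTRIB3-1, and at 5.07, 5.00 and 5.28 in shTRIB3-2. All 6 knockdown libraries were far below the 3 controls, at 36.1% and 37.5% of the control mean. The log2 fold change was -1.45 (95% CI -1.55 to -1.35, limma adjusted p = 5.62e-11) with shTRIB3-1 and -1.40 (-1.5 to -1.3, adjusted p = 5.66e-11) with shTRIB3-2. The hairpins were not told apart in NR1H4 (0.05, 95% CI -0.05 to 0.15, adjusted p = 0.369), although they differed in TRIB3. Between 778 and 2322 fragments lay behind each value.

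RXRA, the gene of the dimer partner of FXR, stood at 10.8 ± 0.178 FPKM in shCtrl and did not pass with either hairpin, with log2 fold changes of -0.02 (95% CI -0.11 to 0.07, adjusted p = 0.664) and -0.03 (-0.12 to 0.06, adjusted p = 0.56). The ratio of NR1H4 to RXRA FPKM went from 1.27 ± 0.0217 in shCtrl to 0.465 ± 0.0135 in shTRIB3-1 and 0.485 ± 0.0127 in shTRIB3-2 (SD, n = 3).

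NR0B2, the gene of the repressor SHP (chromosome 1, 26911489 to 26913975), moved in opposite directions with the 2 hairpins. It stood at 92.4, 85.8 and 89.0 FPKM in shCtrl, at 73.3, 71.1 and 74.7 in shTRIB3-1, and at 131, 137 and 129 in shTRIB3-2. The 3 groups did not overlap. The log2 fold change was -0.29 (95% CI -0.36 to -0.21, adjusted p = 1.46e-05) with shTRIB3-1 and 0.57 (0.49 to 0.65, adjusted p = 2.39e-08) with shTRIB3-2, and the difference between the hairpins was 0.85 (0.78 to 0.93, adjusted p = 8.67e-09). SHP is a direct FXR target, and the ratio of NR0B2 to NR1H4 FPKM was 6.53 ± 0.308 in shCtrl, 14.8 ± 0.445 with shTRIB3-1 and 25.9 ± 1.48 with shTRIB3-2 (SD, n = 3). NR5A2 (LRH-1), the receptor that SHP represses on bile acid genes, showed the same order at a lower level, with log2 fold changes of -0.23 (adjusted p = 0.00292) and 0.32 (adjusted p = 0.000257).

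The promoters of the genes around FXR show which of them carry letters like the FXR element, an inverted repeat of AGGTCA with 1 base between the copies (IR-1). RefSeq windows of 300 bases ran from 250 before to 50 after a start site (GRCh38.p14). They were looked up for the 12 genes of the members, SLC51B and TRIB3, and 8 had an entry. CYP7A1, CYP8B1, NR0B2 and FGF19 had none, so their promoters were not searched. No window among all 35116 held the exact element, and 1.12% held it with at most 2 mismatches on either strand. SLC51B and ABCB11 were the 2 with such a match among the genes read, and their windows are printed with it in capitals, beginning 54 and 96 bases before the start site. The best match in SLC51A and in NR1H4 had 4 mismatches, and those 2 windows are printed because both genes moved. Both windows lie inside their genes as annotated in GENCODE, which begin at 196211487 and 100473708. Windows at those starts were not searched. KLB, FGFR4 and CYP27A1 also moved, and their windows, with 4 or 5 mismatches at best, are not printed for this element. The NR1H4 window held the single half-site AGGTCA, shown in capitals as its reverse complement, which 13.8% of all windows held on either strand. A match is a description of letters and shows no binding. The stretch closest in letters need not be the one that FXR binds, and more mismatches do not show that an element is absent.
SLC51B, chr15:65045137-65045436, plus strand: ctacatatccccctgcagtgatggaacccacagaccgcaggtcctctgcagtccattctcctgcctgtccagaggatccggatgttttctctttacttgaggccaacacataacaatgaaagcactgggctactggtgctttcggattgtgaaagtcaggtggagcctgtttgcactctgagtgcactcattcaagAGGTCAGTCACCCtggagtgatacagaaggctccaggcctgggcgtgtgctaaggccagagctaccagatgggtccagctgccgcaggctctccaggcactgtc
ABCB11, chr2:169031275-169031574, minus strand: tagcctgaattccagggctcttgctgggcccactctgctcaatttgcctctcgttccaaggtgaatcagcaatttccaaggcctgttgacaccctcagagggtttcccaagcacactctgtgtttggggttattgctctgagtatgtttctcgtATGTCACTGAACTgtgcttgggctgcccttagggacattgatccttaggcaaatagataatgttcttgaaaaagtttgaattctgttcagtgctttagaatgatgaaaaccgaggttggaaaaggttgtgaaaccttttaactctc
SLC51A, chr3:196216284-196216583, plus strand: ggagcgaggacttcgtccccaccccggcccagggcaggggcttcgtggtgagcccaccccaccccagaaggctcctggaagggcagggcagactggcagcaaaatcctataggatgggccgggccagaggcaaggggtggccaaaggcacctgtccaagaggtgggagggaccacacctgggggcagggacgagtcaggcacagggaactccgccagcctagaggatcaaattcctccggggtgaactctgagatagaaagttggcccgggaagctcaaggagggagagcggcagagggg
NR1H4, chr12:100503110-100503409, plus strand: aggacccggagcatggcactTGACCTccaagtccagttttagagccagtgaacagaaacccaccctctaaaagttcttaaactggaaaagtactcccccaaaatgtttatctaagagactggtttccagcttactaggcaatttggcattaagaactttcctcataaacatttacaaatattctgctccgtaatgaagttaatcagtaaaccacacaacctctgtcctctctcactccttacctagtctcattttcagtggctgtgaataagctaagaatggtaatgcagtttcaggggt

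SLC51A, which encodes OSTα of the basolateral bile acid exporter (chromosome 3, 196211487 to 196243178), rose with both hairpins. It stood at 4.67, 5.16 and 4.39 FPKM in shCtrl, at 8.23, 6.90 and 8.34 in shTRIB3-1, and at 10.7, 10.7 and 11.4 in shTRIB3-2. All 6 knockdown libraries were above the controls, and those of the second hairpin were above those of the first. The log2 fold change was 0.71 (95% CI 0.54 to 0.88, adjusted p = 4.24e-06) and 1.19 (1.02 to 1.36, adjusted p = 3.18e-08), with a difference between hairpins of 0.48 (0.31 to 0.65, adjusted p = 0.000355). In the annotation 7.4% of SLC51A exon bases are antisense to PCYT1A, and it is not stated whether counting used strand.

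SLC51B encodes OSTβ, the partner without which OSTα is not active. It stood at 2.04, 2.51 and 3.04 FPKM in shCtrl, at 6.87, 7.26 and 7.85 in shTRIB3-1, and at 6.85, 6.71 and 7.59 in shTRIB3-2. It rose with a log2 fold change of 1.51 (95% CI 1.26 to 1.76, adjusted p = 1.31e-07) and 1.46 (1.21 to 1.71, adjusted p = 1.62e-07), and the hairpins were not told apart (-0.05, -0.30 to 0.19, adjusted p = 0.726). SLC51A over SLC51B FPKM was 1.93 ± 0.435 in control, 1.07 ± 0.125 with the first hairpin and 1.56 ± 0.0466 with the second (SD, n = 3). The second hairpin lay within the control range of this ratio and the first below it, and the difference was not tested. In the annotation 6.6% of SLC51B exon bases are antisense to RASL12. The enterocyte markers were mixed. ALPI rose, with 0.765 to 0.862 FPKM in control, 6.30 to 7.11 with the first hairpin and 0.913 to 1.33 with the second, and VIL1 rose by 0.27 and 0.53 on the log2 scale. FABP2, below the filter, fell with shTRIB3-1 (-0.88, adjusted p = 0.0174 in the fit of all symbols) and did not pass with shTRIB3-2 (-0.39, adjusted p = 0.26).

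FGFR4, the hepatic receptor for FGF19 (chromosome 5, 177086905 to 177098144), and KLB, its co-receptor β-Klotho (chromosome 4, 39406930 to 39451533), fell together. FGFR4 stood at 84.6, 82.8 and 86.4 FPKM in shCtrl, at 48.6, 46.6 and 50.5 in shTRIB3-1, and at 48.4, 46.4 and 45.1 in shTRIB3-2. KLB stood at 22.6, 23.6 and 23.4, at 10.4, 9.55 and 10.5, and at 9.80, 9.14 and 9.72 FPKM in the same order. Neither gene overlapped with control in any knockdown library, while the hairpins overlapped with each other in both.

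FGFR4 reached 57.4% and 55.2% of control, a log2 fold change of -0.80 (95% CI -0.88 to -0.72, adjusted p = 1.89e-09) and -0.86 (-0.94 to -0.78, adjusted p = 8.68e-10). KLB reached 43.7% and 41.2% of control, a log2 fold change of -1.19 (-1.29 to -1.08, adjusted p = 4.48e-10) and -1.27 (-1.37 to -1.17, adjusted p = 1.79e-10). The difference between hairpins was -0.06 (-0.14 to 0.03, adjusted p = 0.238) for FGFR4 and -0.08 (-0.19 to 0.02, adjusted p = 0.164) for KLB. The ratio of KLB to FGFR4 FPKM was 0.274 ± 0.00948 in control, 0.209 ± 0.00451 with the first hairpin and 0.205 ± 0.00952 with the second (SD, n = 3), and all 6 knockdown libraries lay below the controls in it.

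FGFR4 had the highest FPKM of the 4 FGF receptors in every library. It made up 75.9% ± 0.468 of the summed FPKM of FGFR1 to FGFR4 in shCtrl, 75.1% ± 0.228 in shTRIB3-1 and 71.4% ± 1.16 in shTRIB3-2, while the sum fell from 112 ± 2.03 to 64.6 ± 2.77 and 65.3 ± 2.12 FPKM (SD, n = 3). FGFR3 fell as well (log2 fold change -0.95, adjusted p = 8.35e-09, and -0.63, adjusted p = 2.91e-07), whereas FGFR1 rose with shTRIB3-1 (0.29, adjusted p = 0.00600) and did not pass with shTRIB3-2 (0.12, adjusted p = 0.193), where it passed after median centring (0.0412), quantile scaling (0.0225) or without shTRIB3-2 replicate 2 (0.0329). FGFR2 held at most 4 fragments in any library. FGFRL1, which binds FGFs but lacks a kinase domain, fell by 1.11 and 0.83 on the log2 scale.

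**Figure D3:**
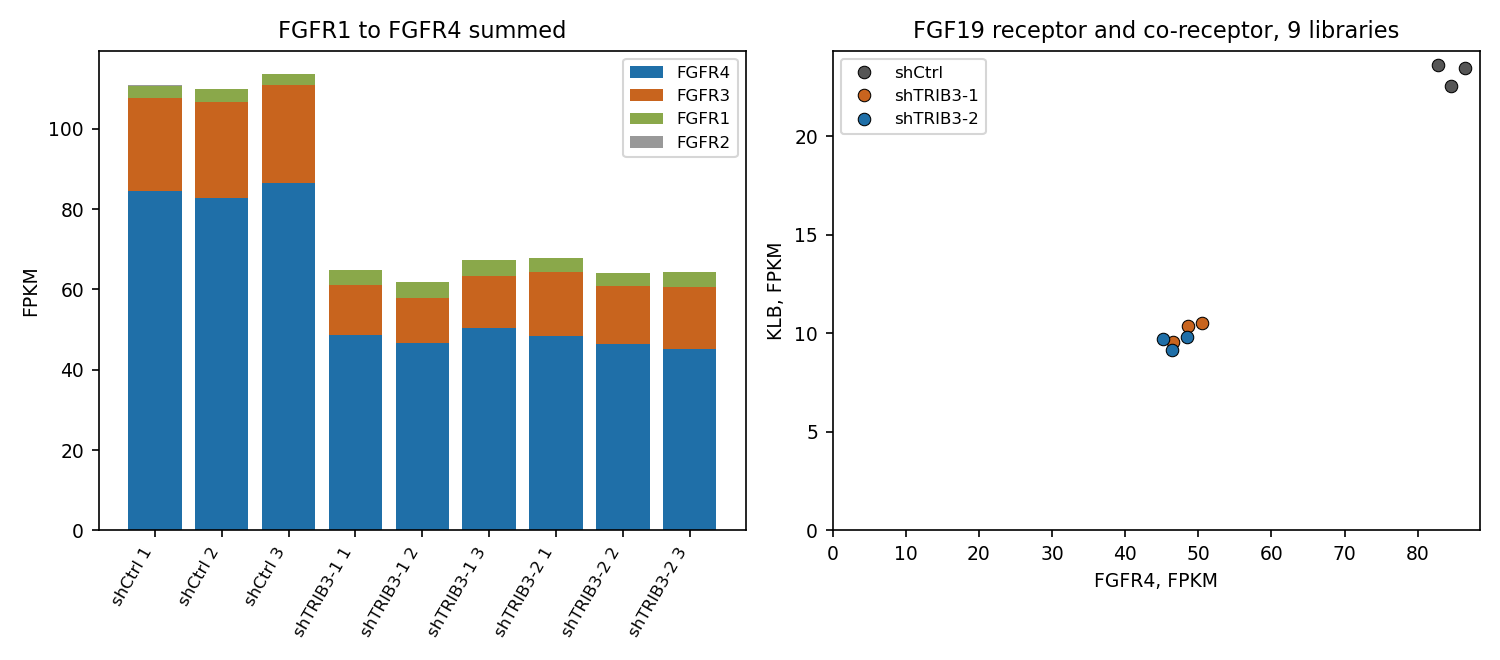
Left, FPKM of FGFR1 to FGFR4 stacked for each of the 9 libraries, and right, KLB against FGFR4 FPKM with 1 point per library. The stack falls from 112 FPKM on average in shCtrl to 64.6 and 65.3 with FGFR4 as its main part throughout, and the 6 knockdown libraries form 1 cloud below and to the left of the 3 controls.

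The FGFR4 promoter is shown because the study is concerned with G-quadruplex DNA, which forms in G-rich stretches. The pattern searched was 4 runs of at least 3 G with loops of 1 to 7 bases on either strand, which 25% of the 35116 windows held. Of the windows of NR1H4, SLC51A, SLC51B, KLB, CYP27A1, ABCB11 and FGFR4, 1 of the 2 FGFR4 windows was the only one with it. The first stretch that matches, read from the 5′ end, is in capitals. The same pattern stood in the TRIB3 windows, and these letters show neither a folded structure nor its effect.
FGFR4, chr5:177086665-177086964, plus strand: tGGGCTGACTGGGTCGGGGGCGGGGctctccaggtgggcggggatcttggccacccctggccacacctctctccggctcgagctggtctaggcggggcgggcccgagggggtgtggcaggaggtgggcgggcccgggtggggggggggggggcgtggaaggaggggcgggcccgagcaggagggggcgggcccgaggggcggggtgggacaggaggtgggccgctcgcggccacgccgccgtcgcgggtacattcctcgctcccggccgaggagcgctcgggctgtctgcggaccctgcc

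FGF19 (chromosome 11, 69698238 to 69704022) was barely detected, with 3, 12 and 5 fragments in the shCtrl libraries, 16, 15 and 9 in shTRIB3-1, and 12, 18 and 24 in shTRIB3-2. The first hairpin overlapped with control. The second met it at 12 fragments and lay just above it in FPKM (0.193 to 0.375 against 0.046 to 0.181). Pooled over 3 libraries and scaled for depth, the level was 2.09 times control with shTRIB3-1 (95% interval 1.19 to 3.77) and 2.80 times with shTRIB3-2 (1.65 to 4.94), and these intervals cover counting error only. In a fit of all 24204 symbols with a value above 0, the log2 fold change was 0.67 (adjusted p = 0.101) and 0.96 (adjusted p = 0.0266), where 20% and 19.7% of symbols passed higher. The second value no longer passed without shCtrl replicate 1 (adjusted p = 0.0951) or replicate 3 (0.082) and without shTRIB3-2 replicate 2 (0.0676) or replicate 3 (0.0912). Without shCtrl replicate 2, shTRIB3-1 passed as well (adjusted p = 0.0258).

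Neighbours of FGF19 in the same band of chromosome 11 went both ways. CCND1 fell to 50.4% and 51.8% of control, LTO1 rose (log2 fold change 0.32, adjusted p = 0.00246, and 0.44, adjusted p = 0.000229), FADD rose by 0.40 and 0.29, and MYEOV rose by 2.67 and 2.52, with 0.389 to 0.666 FPKM in control and 3.09 to 3.85 over the 6 knockdown libraries. FGF21, a hormone that also signals through KLB, had 0 to 4 fragments per library, and no difference was detectable at this depth (log2 fold change 0.30, adjusted p = 0.281, and -0.09, adjusted p = 0.79).

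CYP7A1, the rate-limiting enzyme, which lies on chromosome 8, stood at 6.30, 6.97 and 6.34 FPKM in shCtrl, at 8.91, 8.38 and 9.32 in shTRIB3-1, and at 7.59, 6.13 and 7.79 in shTRIB3-2. All 3 libraries of the first hairpin were above control, and those of the second overlapped with it. It rose with shTRIB3-1 by 0.43 on the log2 scale (95% CI 0.25 to 0.62, adjusted p = 0.000489). With shTRIB3-2 the value was 0.13 (-0.06 to 0.31, adjusted p = 0.19), and it passed without shTRIB3-2 replicate 2 (0.23, adjusted p = 0.00637). The hairpins differed by -0.31 (-0.49 to -0.13, adjusted p = 0.00993).

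CYP27A1, the mitochondrial enzyme of the alternative pathway (chromosome 2, 218781749 to 218815293), stood at 84.5, 85.7 and 81.2 FPKM in shCtrl, at 71.0, 68.9 and 70.1 in shTRIB3-1, and at 63.7, 66.1 and 65.3 in shTRIB3-2. The groups did not overlap, and the change was small. It fell by 0.26 (adjusted p = 7.89e-06) and by 0.36 (adjusted p = 3.11e-07) on the log2 scale, to 83.5% and 77.6% of control. The hairpins differed by -0.11 (95% CI -0.17 to -0.04, adjusted p = 0.0138), which no longer passed without shTRIB3-2 replicate 1 (-0.09, adjusted p = 0.0591).

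CYP8B1, the sterol 12α-hydroxylase (chromosome 3, 42856005 to 42875898), held 72, 61 and 46 fragments in shCtrl, 66, 58 and 52 in shTRIB3-1, and 92, 63 and 102 in shTRIB3-2. The groups overlapped. Against control, the pooled level was 1.03 times (95% interval 0.83 to 1.27) with shTRIB3-1 and 1.49 times (1.23 to 1.81) with shTRIB3-2, for counting error alone. The test between libraries did not pass with either hairpin (log2 fold change 0.04, adjusted p = 0.923, and 0.48, adjusted p = 0.111). Without shTRIB3-2 replicate 2 the second value passed (0.66, adjusted p = 0.0325). The antisense overlap with ACKR2 is 3.4% of its exon bases.

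ABCB11, the bile salt export pump (chromosome 2, 168915498 to 169031324), had 2 fragments in each control library. The libraries of shTRIB3-1 held 5, 6 and 4, and those of shTRIB3-2 held 6, 8 and 6. The groups did not overlap between control and knockdown, with at most 8 fragments behind a value. The pooled ratio to control was 2.61 (95% interval 0.958 to 8.22) and 3.46 (1.34 to 10.5), covering counting error only. The fit without a filter gave log2 fold changes of 0.15 (adjusted p = 0.0472) and 0.22 (adjusted p = 0.00759) on a scale that understates such low values, and the first no longer passed when any of 7 of the 9 libraries was left out in turn (adjusted p 0.0579 to 0.115).

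The differences between the hairpins can be read over the 7 tested members as a set. Against shTRIB3-1, 2 members were higher with shTRIB3-2 (NR0B2 and SLC51A, 25.1% of all genes), 2 were lower (CYP7A1 and CYP27A1, 20.7%) and 3 did not pass (NR1H4, FGFR4 and KLB). None passed the 2-fold call in either direction by limma, where 1.79% of genes were called lower and 0.284% higher, and voom on recovered fragments also called 0. At an unadjusted p under 0.05 the same 4 members passed.

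**Figure D4:**
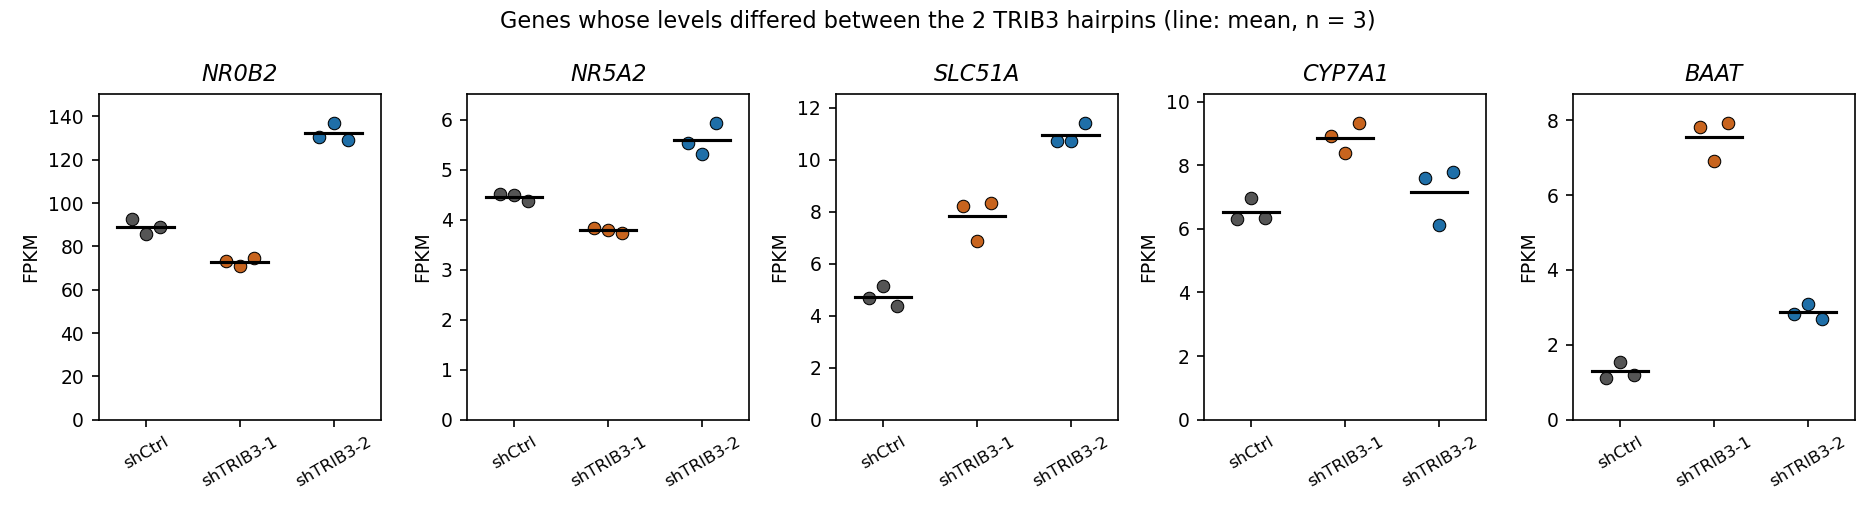
FPKM per library (points) and group mean (lines, n = 3) on linear axes from 0 for NR0B2, NR5A2, SLC51A, CYP7A1 and BAAT, genes in which the hairpins differed from each other. NR0B2 and NR5A2 lie below control with shTRIB3-1 and above it with shTRIB3-2, SLC51A is highest with shTRIB3-2, and CYP7A1 and BAAT are highest with shTRIB3-1.

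The counts of passing genes in the lists that follow stand beside the shares over all tested genes, 41.5% lower and 32.9% higher with shTRIB3-1 and 40.5% lower and 35.4% higher with shTRIB3-2. Of 16 other genes of bile acid synthesis and conjugation, 11 were tested, of which 8 fell and 2 rose with shTRIB3-1 and 6 fell and 3 rose with shTRIB3-2. Their median log2 fold change was -0.23 and -0.21. HSD3B7, which acts just after CYP7A1 on the sterol ring, stood at 38.8, 37.8 and 36.5 FPKM in shCtrl. It stood at 12, 12 and 13 in shTRIB3-1, and at 16.9, 17.1 and 18.6 in shTRIB3-2. Its log2 fold change was -1.60 (adjusted p = 4.25e-11) and -1.1 (adjusted p = 6.97e-10), beyond that of any CYP enzyme among the members. AKR1D1, the 5β-reductase, fell by 0.23 and 0.21.

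Among genes of peroxisomal side-chain shortening the directions were mixed. SLC27A2, an acyl-CoA synthetase, fell by 1.34 and 1.28, HSD17B4 by 0.57 and 0.53, ABCD3 by 0.55 and 0.31, and ACOT8 by 0.20 and 0.32 on the log2 scale. For ACOT8 with shTRIB3-1 the test no longer passed after median centring (adjusted p = 0.0515). The oxidase ACOX2 fell with shTRIB3-1 (-0.32, adjusted p = 8.91e-05) and rose with shTRIB3-2 (0.13, adjusted p = 0.0292, or 0.086 on TPM and 0.131 without shTRIB3-2 replicate 1). SCP2, a thiolase and sterol carrier, fell with shTRIB3-1 (-0.13, adjusted p = 0.0096, or 0.239 after median centring) and did not pass with shTRIB3-2 (-0.05, adjusted p = 0.288). The conjugating enzymes rose. BAAT, which joins bile acids to glycine or taurine, stood at 1.12, 1.55 and 1.21 FPKM in shCtrl, at 7.81, 6.92 and 7.92 in shTRIB3-1, and at 2.83, 3.08 and 2.70 in shTRIB3-2. It rose by 2.47 (adjusted p = 9.69e-10) and 1.1 (adjusted p = 1.24e-06), and SLC27A5, the bile acyl-CoA synthetase, rose by 0.26 and 0.54. AMACR (0.245 to 0.591 FPKM) and CYP7B1 (0 to 3 fragments per library) were below the filter in every group.

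Of 17 other transporters of bile acids and bile lipids, 11 were tested, of which 6 rose and 4 fell with shTRIB3-1 (32.9% and 41.5% of all genes), and 7 rose and 1 fell with shTRIB3-2 (35.4% and 40.5%). The median log2 fold change was 0.20 and 0.51, beside -0.06 and -0.04 over all tested genes. The exporters ABCC2 (MRP2, 0.20 and 0.51), ABCC4 (MRP4, 0.57 and 0.60), ABCB1 (0.54 and 0.70), ABCG2 (0.81 and 1.29) and the lipid flippase ATP8B1 (0.48 and 0.92) rose with both hairpins. ABCC3 did not pass with shTRIB3-1 (-0.04) and rose with shTRIB3-2 (0.30), and ABCB4, the phospholipid floppase, fell with shTRIB3-1 (-0.34) and did not pass with shTRIB3-2 (0.08). ABCG8, a sterol exporter, fell with both (-0.57 and -0.49). The uptake carrier SLC10A1 (NTCP), below the filter, had 17 fragments over the 3 shCtrl libraries, 63 in shTRIB3-1 and 56 in shTRIB3-2. The ratio to control was 3.87 (95% interval 2.24 to 7.06) and 3.41 (1.96 to 6.27), for counting error alone. In the fit of all symbols it rose by 1.20 (adjusted p = 0.00618) and 1.08 (adjusted p = 0.011). Other uptake carriers differed. SLCO2B1 fell with shTRIB3-1 (-0.23, adjusted p = 0.00732) and did not pass with shTRIB3-2 (0.04). SLCO1B1, below the filter, also fell with shTRIB3-1 only (-0.74, adjusted p = 0.0033 in that fit). SLCO1B3 (at most 5 fragments per library) passed with neither.

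Among 18 nuclear receptors and factors that act on bile acid genes, 15 were tested, with 4 rising and 7 falling under shTRIB3-1 and 5 in each direction under shTRIB3-2. PPARGC1A, a coactivator of FXR and HNF4α, had the largest change of those that passed in 1 direction with both hairpins, with 1.66 to 1.93 FPKM in control and 0.287 to 0.463 over the knockdown libraries (log2 fold change -2.23, adjusted p = 6.46e-08, and -1.97, adjusted p = 1.83e-07). PROX1, a corepressor, fell by 0.45 and 0.38. MAFG, a repressor that FXR induces, rose by 0.70 and 0.68, and PPARA rose by 0.41 and 0.70. HNF4A fell with shTRIB3-1 (-0.23, adjusted p = 4.26e-05) and did not pass with shTRIB3-2 (-0.07, adjusted p = 0.0761, or 0.0257 on TPM), and NR1H3 (LXRα) fell by 0.22 and 0.21, which no longer passed with shTRIB3-1 after median centring (adjusted p = 0.0612).

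**Figure D5:**
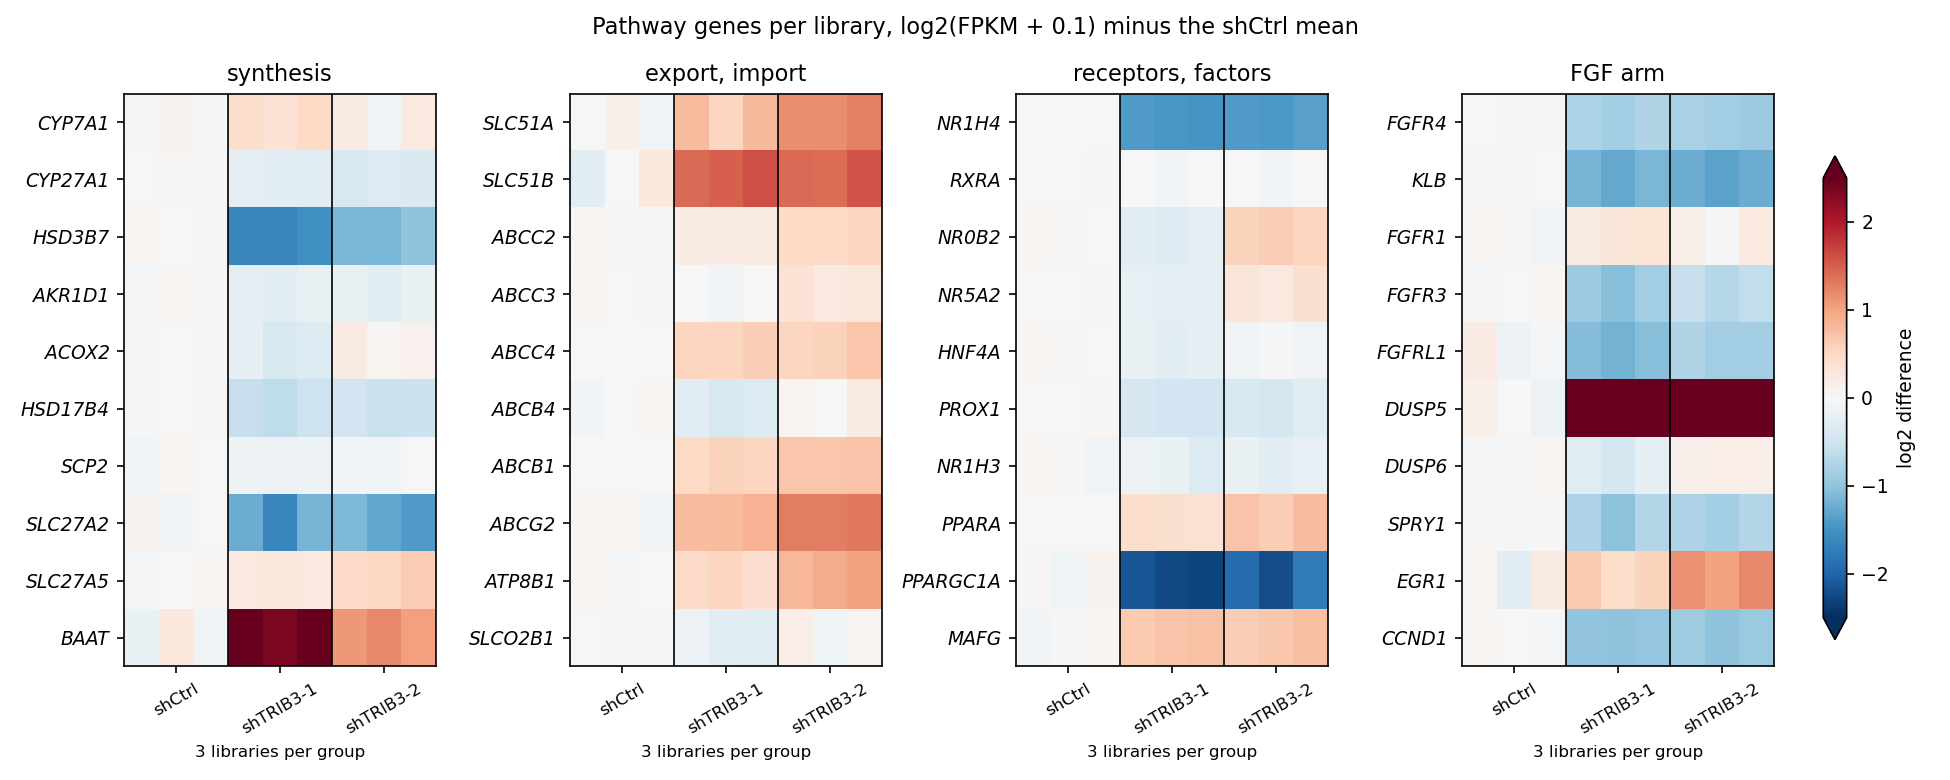
Log2(FPKM + 0.1) of each library minus the mean of the 3 shCtrl libraries, for 40 genes in 4 panels by role (red higher, blue lower, colour limits at 2.5 and -2.5, so DUSP5 lies beyond the scale). HSD3B7 and SLC27A2 are blue and BAAT red among synthesis genes, and NR1H4, PPARGC1A, FGFR4 and KLB are blue in all 6 knockdown libraries. Most exporters shown are red, though ABCB4 is lower with shTRIB3-1. The genes shown are a selection that leaves out ABCG8, lower with both hairpins, and ABCG5, lower with shTRIB3-1.

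FXR target genes outside the members did not share 1 direction. Of 16 listed, 13 were tested, and 5 rose and 8 fell with shTRIB3-1 while 4 rose and 7 fell with shTRIB3-2. UGT2B4, which glucuronidates bile acids, rose by 1.19 and 1.82 on the log2 scale. The fibrinogen genes FGA (-1.55 and -0.99) and FGG (-1.67 and -1.21) fell, and so did KNG1, the kininogen gene (-1.04 and -0.64). Against shTRIB3-1, 10 of the 13 were higher and 2 lower with shTRIB3-2 (25.1% and 20.7% of all genes), with a median of 0.40 beside 0.03 over all tested genes.

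Downstream of the FGF receptors, 13 of 14 feedback and response genes of the ERK pathway were tested. With shTRIB3-1, 6 rose and 4 fell, and with shTRIB3-2, 8 rose and 4 fell. DUSP5, an ERK phosphatase, stood at 5.06 to 6.23 FPKM in shCtrl and at 70.5 to 77.5 and 57.9 to 62.4 in the knockdown groups (log2 fold change 3.68, adjusted p = 8.34e-13, and 3.39, adjusted p = 8.93e-13). EGR1 (0.55 and 1.12) and IER3 (0.71 and 0.93) rose, SPRY1, an inhibitor of FGF signalling, fell by 0.84 and 0.78, and CCND1 fell by 0.99 and 0.95. These genes answer to many inputs, and no measurement here separates FGFR4 from the others.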

How the data were processed

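RNA-seq was made from 9 HepG2 libraries, 3 per group, each assigned by its label. The authors deposited 1 table of FPKM values (fragments scaled for gene length and library total, 1 column per library), with reads aligned to GRCh38 by STAR per the methods. The submitters' processing notes name HTSeq and R 3.2.0. The annotation release and strand setting are not given in the sources used here. FPKM divides by 1 length and 1 total per library, so it does not correct for composition. The authors' own comparisons used DESeq2, which was not run here since the deposited values are not counts.

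Depth was recovered from the FPKM steps. Of the 172769 nonzero values, 99.999% lay within 0.02 of a whole number of fragments, with totals of 34206726 to 36311029. For KLB the smallest whole numbers were multiplied by 2 to match its annotated exon length. Intervals on pooled fragments and the floor of 3 fragments cover counting error only, and leave out the spread between libraries. The methods name no molecular identifiers, so copied fragments may be among those counted. Replicates differed by a chi-square per degree of freedom of 3.127 to 7.539, more than sampling noise. Each library was counted as its own sample, and this value does not show whether the libraries came from separate cultures.

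Genes with FPKM of at least 1 in at least 3 of 9 libraries were tested on log2(FPKM + 0.1) with limma 3.58.1 in R 4.3.3 (group means, empirical Bayes with trend, two-sided, Benjamini-Hochberg over 11265 genes). Such fold changes understate low genes. The 3 members below the filter were tested in a fit of every symbol above 0. Scripts were tested on simulated data. The alternatives were another pseudocount, filter, scaling, a replicate block, voom on recovered fragments, and each library left out. The members and gene lists were chosen with earlier results of these data known. Genes were named by a fixed rule: all members, listed partners whatever their values, and up to 4 other genes per list with the largest mean change among those passing in the same direction with both hairpins. The cell type markers ALB, ALPI, KRT19, SOX9, EPCAM, CFTR, SI, VIL1 and FABP2 fall outside this rule. So do the enzymes ACOX2 and SCP2 and the transporters ABCG5, SLCO2B1, SLCO1B1 and SLCO1B3. These genes were named after their values were seen. Promoter windows came from RefSeq (GRCh38.p14) and gene positions from GENCODE release 44. Its exon lengths differ from those behind the FPKM values for several genes (SLC51A 5263 against 1430 bases, NR1H4 3628 against 4651). The antisense shares given above may therefore not hold for the exons that were counted. The result for 1 listed gene is not reported here.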

Additional observations from a re-analysis of the deposited data

Results flagged for a closer look

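In 4 of the 10 genes the effect of the knockdown differed between the hairpins by the test of the difference itself (limma, shTRIB3-2 against shTRIB3-1, adjusted over all tested genes), where 20.7% of tested genes passed lower and 25.1% higher. These are 4 of the 7 tested members, a share not far from that background. NR0B2 differed most, with a log2 fold change of 0.85 (adjusted p = 8.67e-09), and it alone changed direction against control, lower with shTRIB3-1 and higher with shTRIB3-2 in 3 of 3 libraries each. SLC51A differed by 0.48 (adjusted p = 0.000355) and was higher than control in 6 of 6 knockdown libraries. CYP7A1 differed by -0.31 (adjusted p = 0.00993), with shTRIB3-2 overlapping control. CYP27A1 differed by -0.11 (adjusted p = 0.0138), and whether it passed depended on the scaling and on shTRIB3-2 replicate 1. The hairpins also differed in how far TRIB3 fell, to 50.3% and 30.8% of control, and in the summed hepatocyte markers, which were mostly ALB. The part of either in these differences was not tested.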

How the results depend on the processing

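The counts of members called and of members with an adjusted p under 0.05 stayed within 1.5 times their value in each of the 3 comparisons under every alternative run, and no member changed direction while called. Of 420 recomputed fold changes of the 7 tested members, 411 stayed on the same side of an adjusted p of 0.05, 6 came to pass it and 3 no longer did. CYP7A1 with shTRIB3-2 passed after median centring (0.18, adjusted p = 0.0441) and after quantile scaling (0.18, adjusted p = 0.0416). KLB differed between hairpins under the same scalings (-0.11, adjusted p = 0.049 and 0.0475) and without shTRIB3-1 replicate 2 (-0.13, adjusted p = 0.0471), and CYP27A1 no longer did with quantile scaling (-0.08, adjusted p = 0.0726) or TPM (-0.08, adjusted p = 0.078). The cause was not tested. Same-numbered replicates did not deviate together (correlations -0.0742 to 0.0933), so the numbers were not taken as pairs. A replicate block left the 21 comparisons of the tested members on the same side, and ABCB11 with shTRIB3-1 no longer passed (0.15, adjusted p = 0.0719). ABCB11 with shTRIB3-1 also did not pass with a pseudocount of 1 (adjusted p = 0.0512) or 0.01 (0.0927), TPM (0.0629), quantile scaling (0.461), median centring (0.44) and voom (0.0525), and with shTRIB3-2 after median centring (0.0671). FGF19 with shTRIB3-2 no longer passed when only its 2 groups were fitted (adjusted p = 0.0757) and passed with voom (1.57, adjusted p = 0.016). Over all genes, 1294, 1389 and 234 were called in the 3 comparisons, against 780, 888 and 84 with a pseudocount of 1, 745, 801 and 126 at an FPKM of at least 5, and 1999, 1941 and 417 with no filter. Between the hairpins 13.7% of calls were higher, against 24.6% after quantile scaling, 4.8% with a pseudocount of 1, 5.6% at an FPKM of at least 5 and 8.4% without shTRIB3-2 replicate 1. Depth limits FGF19, ABCB11, CYP7B1 and FGF21, where few fragments lie behind each value.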
